A study of Mus musculus with 4 samples.

Results

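The interleukin-1 family and its receptors were followed by RNA-seq in the inguinal fat pad of the mouse (ingWAT), a subcutaneous white depot. The 10 genes, picked by symbol, were the ligands *Il1a*, *Il1b*, *Il33* and *Il18*, the antagonist *Il1rn*, the signalling receptors *Il1r1*, *Il1rap*, *Il1rl1* and *Il18r1*, and the decoy receptor *Il1r2*. All 10 were among the 19030 genes with a value, and 9 of them were among the 12658 genes tested, which had a mean of at least 1 FPKM over the 4 libraries. FPKM counts the fragments of a gene scaled by its transcript length and by the mapped fragments of the library, so levels of different genes can be set side by side.

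Both groups were C57BL/6 mice aged 3 months and housed in the cold, at 4°C, with 2 libraries in each. Ctrl mice carried *Oct3* alleles flanked by loxP sites (*Oct3* fl/fl) and no Cre. In cKO mice, labelled Oct3 deficient, the same alleles were removed by Cre under the Adiponectin promoter. This promoter is active in mature adipocytes, so *Oct3* was not targeted in the immune, endothelial and stromal cells of the depot. Male mice are described in the Methods of the study, and the number of mice behind a library is not stated there. The p-values therefore measure the spread between these libraries, which may be technical. *Oct3* is a transporter that takes up norepinephrine and other monoamines.

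IL-1α and IL-1β bind the receptor IL-1R1, which then recruits the accessory protein IL-1RAP, and the complex signals through MyD88 to NF-κB. The antagonist IL-1RA, the product of *Il1rn*, occupies IL-1R1 without signalling, and the decoy IL-1R2 binds IL-1 but lacks the signalling domain. IL-33 signals through ST2, the product of *Il1rl1*, together with IL-1RAP, and in fat it maintains group 2 innate lymphoid cells and regulatory T cells. IL-18 signals through the products of *Il18r1* and *Il18rap* and is held in check by the binding protein IL-18BP. In adipose tissue IL-1β is known mostly as a product of macrophages and other myeloid cells that lowers insulin signalling and the induction of *Ucp1* in adipocytes.

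The targeted gene, listed as *Slc22a3*, was read at 16.95 and 17.68 FPKM in the Ctrl libraries and at 9.07 and 9.50 FPKM in the cKO libraries. The log2 fold change of FPKM + 1 was -0.83 (SE 0.066, limma with Benjamini-Hochberg adjustment over all genes tested, adjusted p = 0.000439). A value for the whole gene does not separate the deleted exons from the rest. The depth, estimated from the steps between the values of short RNAs, was between 17400000 and 18150000 reads per library. Of the 12658 genes, 3269 passed an adjusted p under 0.05, which is 25.8%, with 1519 (12.0%) higher and 1750 (13.8%) lower in cKO. Without Ctrl replicate 1 the number of genes passing was 787, without Ctrl replicate 2 it was 1478, and without cKO replicate 1 it was 2152. Adipocyte markers were abundant in every library, with a summed level of 22929 and 23170 FPKM in Ctrl and 19115 and 19301 FPKM in cKO. Most of it was *Fabp4* (15874 and 16398 FPKM in Ctrl, 13456 and 13616 in cKO), which did not pass the test. The Ctrl libraries also held skeletal muscle RNA. The 12 muscle markers summed to 2449 and 1647 FPKM in Ctrl and to 11.77 and 9.12 FPKM in cKO, and 10 of them were tested and called lower in cKO, most of them reaching the filter through Ctrl. *Ckm*, the muscle creatine kinase, was at 333 and 210 FPKM in Ctrl and at 0.56 and 0.35 FPKM in cKO. The part of this muscle RNA in the results below was not tested. In whole tissue, fewer cells of a type and less RNA per cell cannot be told apart.

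Among the 9 members tested, the cytokine *Il1b* and the antagonist *Il1rn* were higher in cKO and the decoy receptor *Il1r2* was lower, and the other 6 did not pass the threshold. The 2 of 9 that were higher stand beside 12.0% of all genes tested, and the 1 of 9 that was lower beside 13.8%. In all, 3 of 9 passed, beside 25.8%, so the share of the family that passed is near that of all genes. The groups did not overlap for 6 of the 9, beside 66.5% of all genes tested. Both cKO libraries were above for 3 of the 9 (31.9% of all genes) and below for 3 (34.6%). The median log2 fold change of the 9 members was -0.06, against -0.006 for all genes tested.

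**Figure D1:**
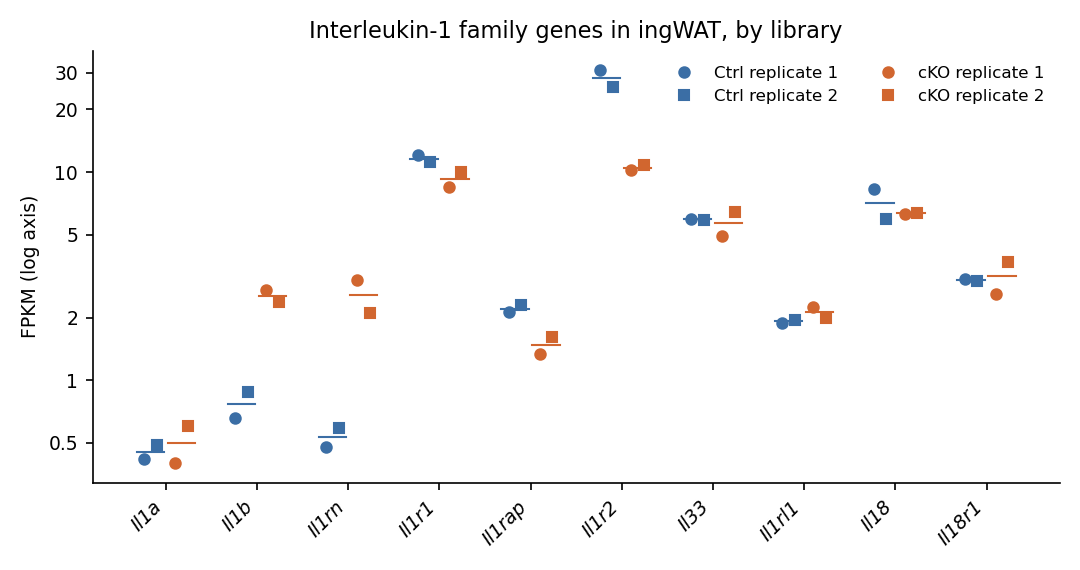
FPKM of the 10 interleukin-1 family genes in each library, on a log axis. Blue symbols are Ctrl and orange symbols cKO, circles are replicate 1 and squares replicate 2, and the short lines are group means. *Il1b* and *Il1rn* lie below 1 FPKM in both Ctrl libraries and above 2 FPKM in both cKO libraries, and *Il1r2* lies above 25 FPKM in Ctrl and below 11 FPKM in cKO.

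In Ctrl tissue the IL-1 receptors outranked the IL-1 ligands, whereas *Il33* and *Il18* were above their own receptors. The highest of the 10 was *Il1r2*, at 28.2 ± 3.61 FPKM (SD, n = 2), followed by *Il1r1* at 11.6 ± 0.672, *Il18* at 7.09 ± 1.66, *Il33* at 5.93 ± 0.0566, *Il18r1* at 3.04 ± 0.0636, *Il1rap* at 2.21 ± 0.127 and *Il1rl1* at 1.92 ± 0.0495 FPKM. The lowest were *Il1b* at 0.77 ± 0.156, *Il1rn* at 0.535 ± 0.0778 and *Il1a* at 0.455 ± 0.0495 FPKM. Neighbours in this order whose libraries overlapped were *Il18* with *Il33* and *Il1rn* with *Il1a*. In cKO tissue *Il1r2* was still the highest, at 10.5 ± 0.445 FPKM, and *Il1r1* next, at 9.23 ± 1.12 FPKM. The order below *Il18r1* (3.16 ± 0.778 FPKM) changed, with *Il1rn* at 2.58 ± 0.658 and *Il1b* at 2.54 ± 0.233 FPKM above *Il1rl1* at 2.12 ± 0.17 and *Il1rap* at 1.48 ± 0.198 FPKM. There the libraries of *Il18r1*, *Il1rn* and *Il1b* overlapped from each neighbour to the next, as did those of *Il18* and *Il33*. Those of *Il1rn* (3.04 and 2.11 FPKM) also overlapped those of *Il1rl1* (2.24 and 2.0 FPKM), so the order of this pair is not separated.

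*Il1b* encodes the inflammatory cytokine that is made as a precursor and cut by caspase-1. It was at 0.66 and 0.88 FPKM in the Ctrl libraries and at 2.71 and 2.38 FPKM in the cKO libraries. Both cKO libraries lay above both Ctrl libraries, and the mean was 3.31 times as high. As a difference of log2(FPKM + 1), a scale on which low genes change less than their fold, it was 1.0 (SE 0.124, 95% confidence interval 0.71 to 1.29, limma with Benjamini-Hochberg adjustment, adjusted p = 0.00184). This was the rise of rank 90 among the 12658 genes. At the estimated depth the values stand for about 15.8 and 20.7 reads in Ctrl and 62.2 and 55.1 reads in cKO, so counting error is a large part of the Ctrl values. The antisense gene *Il1bos* overlaps *Il1b*, and the library preparation is not described as stranded, so reads in the overlap cannot be assigned to one or the other. *Il1bos* itself was listed at 0.07 and 0.21 FPKM in Ctrl and 0.38 and 0.13 FPKM in cKO.

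*Il1rn*, the receptor antagonist, was at 0.48 and 0.59 FPKM in Ctrl and at 3.04 and 2.11 FPKM in cKO. Again both cKO libraries were above both Ctrl libraries, and the cKO libraries differed more from each other than those of Ctrl. The mean was 4.81 times as high in cKO, with a log2 fold change of FPKM + 1 of 1.21 (SE 0.153, 95% confidence interval 0.85 to 1.57, limma with Benjamini-Hochberg adjustment, adjusted p = 0.002), the rise of rank 56. RefSeq lists 3 transcripts of the gene, of 728 to 2474 bases, so the reads behind a value depend on which is used. The Ctrl values of *Il1rn* stand for 6.03 to 25.6 reads and its cKO values for 25.6 to 129 reads. Both *Il1b* and *Il1rn* had a Ctrl mean under 1 FPKM and passed the filter on low values through the cKO libraries. With no filter, over all 19030 genes, limma gave adjusted p = 0.0301 for *Il1b* and 0.0353 for *Il1rn*.

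*Il1a*, the ligand that shares the IL-1 receptor and lies next to *Il1b*, was listed at 0.42 and 0.49 FPKM in Ctrl and at 0.40 and 0.60 FPKM in cKO. The groups overlapped, and its mean was too low for the test. It stood on between 13.5 and 20.4 estimated reads in each library, much like *Il1b* in Ctrl, whose 3.31-fold rise passed the test. A smaller difference may not be detectable at this depth, and the fit with no filter gave an adjusted p of 0.782 (limma, Benjamini-Hochberg).

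The genes for these ligands and the antagonist lie on chromosome 2 in the build mm10 (GENCODE M21): *Il1rn* at chr2:24336853-24351494 on the plus strand, *Il1a* at chr2:129299610-129309972 and *Il1b* at chr2:129364570-129371139, both on the minus strand. The 250 bases before the first RefSeq start are shown for the pair that rose and for *Il1a*, the neighbour that did not pass, with matches in capitals (RefSeq, GRCm38.p6). They lie at chr2:129371140-129371389 (minus strand) for *Il1b*, chr2:24336610-24336859 (plus strand) for *Il1rn* and chr2:129309973-129310222 (minus strand) for *Il1a*.
Il1b: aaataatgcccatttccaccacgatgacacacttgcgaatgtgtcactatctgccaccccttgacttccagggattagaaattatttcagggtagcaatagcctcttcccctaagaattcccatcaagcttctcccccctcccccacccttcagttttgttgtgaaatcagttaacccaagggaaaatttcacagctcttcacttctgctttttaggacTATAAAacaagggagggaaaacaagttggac
Il1rn: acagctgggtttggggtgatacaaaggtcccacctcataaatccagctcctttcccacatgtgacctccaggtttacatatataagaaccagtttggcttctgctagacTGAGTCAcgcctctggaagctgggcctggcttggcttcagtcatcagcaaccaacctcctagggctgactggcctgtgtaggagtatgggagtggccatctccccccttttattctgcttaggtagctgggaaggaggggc
Il1a: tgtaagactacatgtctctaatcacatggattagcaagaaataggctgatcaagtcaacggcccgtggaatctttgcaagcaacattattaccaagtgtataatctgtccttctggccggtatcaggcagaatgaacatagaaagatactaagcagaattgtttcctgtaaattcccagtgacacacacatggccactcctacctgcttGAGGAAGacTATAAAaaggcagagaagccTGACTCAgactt
The capitals in *Il1b* mark TATAAA, searched on the strand of the gene, at positions -31 to -26 from the start. In *Il1rn* they mark TGAGTCA, a match to the AP-1 motif TGANTCA, at -141 to -135. *Il1a* held TATAAA at -32 to -27, an AP-1 match, TGACTCA, at -12 to -6 and the PU.1 motif GAGGAAG at -41 to -35. Of 18180 promoters of the same length, 5.09% held TATAAA, 5.43% the AP-1 motif and 11% the PU.1 motif, the last pair searched on both strands. The NF-κB motif, found in 4.59% of promoters, and the C/EBP motif TTGCNNAA, found in 8.38%, had no match in these 3 windows, which says only that these letters are not there. For *Il1rn* RefSeq lists 3 starts, and the windows before the later ones, not shown, held no match to any motif searched. Which start was in use was not tested. All 10 members were in the promoter table.

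*Il1r2*, the decoy receptor, was at 30.77 and 25.66 FPKM in Ctrl and at 10.18 and 10.81 FPKM in cKO. Both cKO libraries lay far below both Ctrl libraries, and the Ctrl mean was 2.69 times that of cKO. The log2 fold change of FPKM + 1 was -1.34 (SE 0.0919, 95% confidence interval -1.56 to -1.12, limma with Benjamini-Hochberg adjustment, adjusted p = 0.000299), the fall of rank 90 from the bottom. With about 632 to 772 estimated reads in Ctrl and 245 to 262 in cKO it was also the best measured of the 3 members that passed. *Il1r2* lies at chr1:40074079-40125231 on the plus strand. The RefSeq start is inside that span, and the 250 bases before it, chr1:40085843-40086092 in GRCm38.p6, are shown for the only member that fell.
Il1r2: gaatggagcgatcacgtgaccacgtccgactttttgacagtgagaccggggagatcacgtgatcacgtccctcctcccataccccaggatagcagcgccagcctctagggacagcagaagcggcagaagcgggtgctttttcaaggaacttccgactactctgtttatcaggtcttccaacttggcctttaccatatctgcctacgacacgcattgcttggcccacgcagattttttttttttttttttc
None of the 6 motifs searched (NF-κB, AP-1, C/EBP, PU.1, TATAAA and the CRE core TGACG, the last found in 23.1% of promoters) had a match in this window, so it holds no capitals.

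The signalling receptor *Il1r1* was at 12.07 and 11.12 FPKM in Ctrl and at 8.44 and 10.02 FPKM in cKO. The groups did not overlap, with both cKO libraries lower. Its log2 fold change of FPKM + 1 was -0.30 (95% confidence interval -0.52 to -0.08) and did not pass the threshold (limma with Benjamini-Hochberg adjustment, adjusted p = 0.0511). The accessory chain *Il1rap* was at 2.12 and 2.30 FPKM in Ctrl and at 1.34 and 1.62 FPKM in cKO, likewise without overlap. Its log2 fold change of FPKM + 1 was -0.37 (95% confidence interval -0.64 to -0.11, adjusted p = 0.0507 with limma and Benjamini-Hochberg adjustment). Both values lie at the threshold, and the call changed with the processing: over the alternatives the adjusted p ran from 0.0281 to 0.299 for *Il1r1* and from 0.0286 to 0.202 for *Il1rap*.

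**Figure D2:**
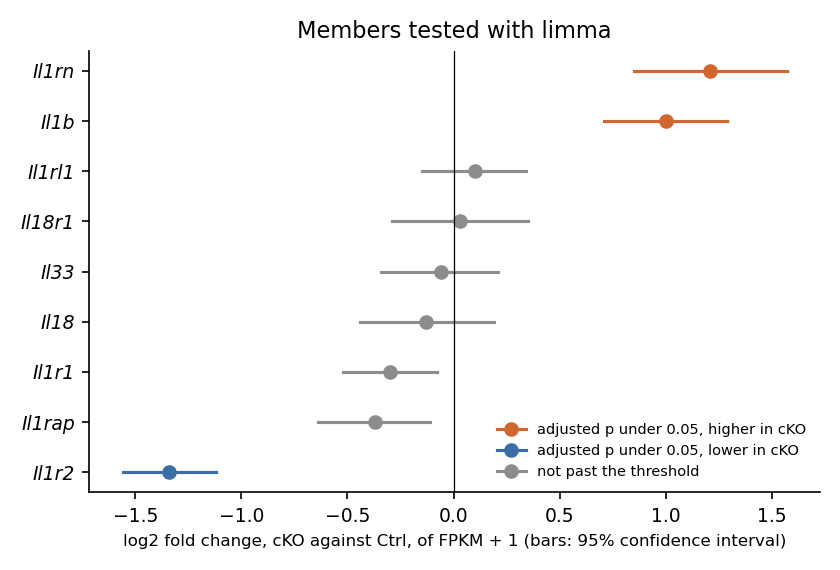
Log2 fold change of FPKM + 1, cKO against Ctrl, of the 9 members tested, with 95% confidence intervals from limma. Orange and blue mark an adjusted p under 0.05, higher and lower in cKO, and grey the members that did not pass. *Il1rn* (1.21) and *Il1b* (1.0) stand on the right, *Il1r2* (-1.34) on the left, and the intervals of *Il1rl1*, *Il18r1*, *Il33* and *Il18* cross 0.

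Within each library the ratio of inhibitor to target was also formed, from FPKM. *Il1r2* over *Il1r1* was 2.55 and 2.31 in Ctrl and 1.21 and 1.08 in cKO. The decoy was therefore above the signalling receptor in all 4 libraries, by a smaller margin in cKO, with a log2 difference of -1.09. *Il1rn* over *Il1b* was 0.727 and 0.67 in Ctrl and 1.12 and 0.887 in cKO, with a log2 difference of 0.51. The antagonist and the cytokine rose together, and the groups did not overlap in this ratio. In Ctrl it rests on about 15.8 and 20.7 estimated reads of *Il1b* and 6.03 to 25.6 of *Il1rn*, so counting error is a large part of it. Groups without overlap were also common among single genes, at 66.5% of those tested. For *Il18bp*, the secreted inhibitor of IL-18, over *Il18* the ratios were 0.953 and 1.16 in Ctrl and 1.21 and 1.37 in cKO, with a log2 difference of 0.29. With 1 library left out this difference ran from 0.15 (without Ctrl replicate 1) to 0.43 (without Ctrl replicate 2), that of *Il1rn* over *Il1b* from 0.34 (without cKO replicate 1) to 0.68 (without cKO replicate 2), and that of *Il1r2* over *Il1r1* from -1.17 to -1.01. The exact permutation test (two-sided) gave p = 0.333 for each of the 3 ratios, which is the smallest p that 2 against 2 libraries allow.

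**Figure D3:**
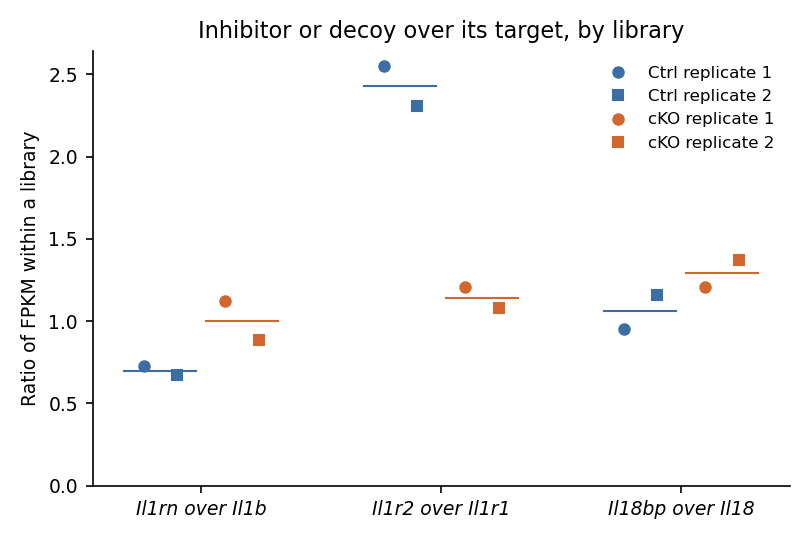
Ratio of the FPKM of an inhibitor or decoy to that of its target in each library, with 0 at the base of the axis. Blue symbols are Ctrl, orange symbols cKO, and the short lines are group means. *Il1r2* over *Il1r1* is 2.55 and 2.31 in Ctrl against 1.21 and 1.08 in cKO, whereas the other ratios are higher in both cKO libraries.

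In the IL-33 arm neither the ligand nor the receptor passed the test. *Il33*, the alarmin made by stromal and mesothelial cells, was at 5.97 and 5.89 FPKM in Ctrl and at 4.91 and 6.45 FPKM in cKO. The cKO libraries lay on either side of Ctrl, and the log2 fold change of FPKM + 1 was -0.06 (95% confidence interval -0.34 to 0.21, limma with Benjamini-Hochberg adjustment, adjusted p = 0.729). Its receptor *Il1rl1* was at 1.88 and 1.95 FPKM in Ctrl and at 2.24 and 2.0 FPKM in cKO, with cKO slightly higher and no overlap. The log2 fold change of FPKM + 1 was 0.10 (95% confidence interval -0.15 to 0.34, adjusted p = 0.54 with limma and Benjamini-Hochberg adjustment). *Il33* lies at chr19:29925114-29960718 and *Il1rap*, the chain its receptor shares with that of IL-1, at chr16:26581704-26730117, both on the plus strand.

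In the IL-18 arm the groups overlapped for both ligand and receptor. *Il18*, a cytokine that drives interferon-γ in T and NK cells, was at 8.27 and 5.92 FPKM in Ctrl and at 6.29 and 6.36 FPKM in cKO. The cKO values fell between those of Ctrl, and the log2 fold change of FPKM + 1 was -0.13 (95% confidence interval -0.44 to 0.19, limma with Benjamini-Hochberg adjustment, adjusted p = 0.52). Its receptor *Il18r1* was at 3.08 and 2.99 FPKM in Ctrl and at 2.61 and 3.71 FPKM in cKO, with cKO on either side of Ctrl. The log2 fold change of FPKM + 1 was 0.03 (95% confidence interval -0.29 to 0.35, adjusted p = 0.888 with limma and Benjamini-Hochberg adjustment). These intervals still allow changes of up to 0.44 in size on the log2 scale. *Il18* lies at chr9:50554827-50581840 on the plus strand.

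The receptor genes *Il1r2*, *Il1r1*, *Il1rl2*, *Il1rl1*, *Il18r1* and *Il18rap* lie side by side on the plus strand of chromosome 1, from chr1:40074079 to 40551705 in mm10. *Il1rl2*, the receptor of the IL-36 cytokines and no member of the list of 10, was at 8.07 and 7.72 FPKM in Ctrl and at 4.02 and 3.89 FPKM in cKO. Both cKO libraries were lower, with a log2 fold change of FPKM + 1 of -0.84 (SE 0.0771, limma with Benjamini-Hochberg adjustment, adjusted p = 0.000708). *Il18rap*, the second chain of the IL-18 receptor, was at 0.75 and 1.02 FPKM in Ctrl and at 0.98 and 1.39 FPKM in cKO, with overlap (log2 fold change of FPKM + 1 0.21, adjusted p = 0.343, limma with Benjamini-Hochberg adjustment). So of the 6 genes *Il1r2* and *Il1rl2* fell, and *Il1r1*, which lies between them, was lower in both cKO libraries without passing. Of all genes tested 13.8% were called lower and 34.6% had both cKO libraries below Ctrl. Whether the position along the chromosome plays a part was not tested.

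**Figure D4:**
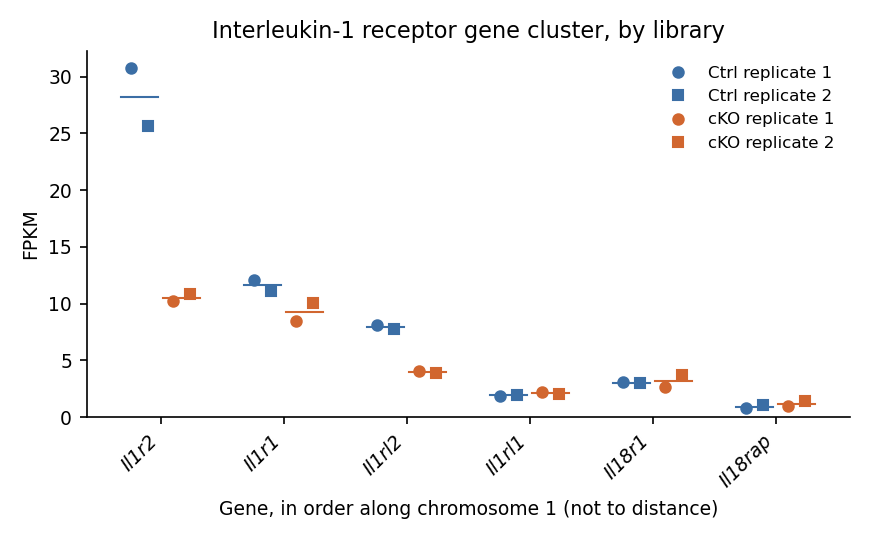
FPKM in each library of the 6 receptor genes on chromosome 1, in their order along the chromosome but not to distance. Blue symbols are Ctrl, orange symbols cKO, and the short lines are group means. The cKO libraries lie below Ctrl for *Il1r2*, *Il1r1* and *Il1rl2*, and near Ctrl for *Il1rl1*, *Il18r1* and *Il18rap*, which are all under 4 FPKM.

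Of 11 further ligands, receptors and binding proteins of the family, 7 were listed and 5 tested. Only *Il1rl2* passed, in the direction of a fall, which is 20% of the 5 beside 13.8% of all genes tested. *Il18bp* was at 7.88 and 6.88 FPKM in Ctrl and at 7.62 and 8.69 FPKM in cKO (log2 fold change of FPKM + 1 0.13, adjusted p = 0.363, limma with Benjamini-Hochberg adjustment). No gene of these 5 was called higher by limma, and 1 was higher at an unadjusted p under 0.05. That gene was *Il1f9*, an IL-36 cytokine named after its values were seen, at 0.79 and 1.07 FPKM in Ctrl and 1.42 and 1.84 FPKM in cKO (adjusted p = 0.0567, limma with Benjamini-Hochberg adjustment). Its Ctrl mean of 0.93 FPKM was under the filter, which it reached through the cKO libraries. It was called under quantile normalization, without a trend and with a replicate block. With median-of-ratios scaling, a pseudocount of 0.1 or no filter it was not called.

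Downstream of the receptors, 3 of the 22 genes for receptor-proximal signalling and NF-κB were higher in cKO, a share of 13.6%, near the 12.0% of all genes tested. They were *Nfkb2* (17.75 and 17.96 FPKM in Ctrl, 24.01 and 25.33 in cKO), *Relb* (17.44 and 18.15 against 22.19 and 26.24 FPKM) and *Nfkbia* (46.33 and 44.91 against 56.56 and 59.99 FPKM), which encode subunits of the noncanonical NF-κB dimer and the inhibitor IκBα. Their log2 fold changes of FPKM + 1 were 0.44, 0.42 and 0.35. The adaptor *Myd88* was at 24.54 and 22.63 FPKM in Ctrl and 24.77 and 25.28 FPKM in cKO and did not pass (adjusted p = 0.383, limma with Benjamini-Hochberg adjustment). None of the 22 was called lower by limma, and 2 were lower at an unadjusted p under 0.05. The median of the list was 0.08, against -0.006 for all genes. Without Ctrl replicate 1, and likewise without Ctrl replicate 2, 1 of the 22 was called.

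In the machinery that matures IL-1β and IL-18, 1 of 9 genes tested was higher, a share of 11.1% beside 12.0% of all genes tested. *Pycard*, the inflammasome adaptor ASC, was at 5.89 and 5.62 FPKM in Ctrl and at 7.79 and 8.22 FPKM in cKO (log2 fold change of FPKM + 1 0.41, adjusted p = 0.00785, limma with Benjamini-Hochberg adjustment). The protease *Casp1* was at 10.97 and 12.05 FPKM in Ctrl and at 9.12 and 10.70 FPKM in cKO (adjusted p = 0.156), and the sensor *Nlrp3* was listed at 0.41 and 0.30 FPKM in Ctrl and 0.46 and 0.50 FPKM in cKO, under the filter. No gene of this list was called lower by limma, nor was any lower at an unadjusted p under 0.05. When either Ctrl library was left out limma called 0 of the 9, with 1 at an unadjusted p under 0.05.

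Of 25 genes that IL-1 is known to induce, 16 were tested. In cKO 5 were higher (31.2%, beside 12.0% of all genes tested) and 3 lower (18.8%, beside 13.8%), and the median log2 fold change of FPKM + 1 was 0.20. The chemokines *Ccl2* (4.35 and 3.58 FPKM in Ctrl, 20.35 and 16.97 in cKO, log2 fold change 1.98) and *Ccl7* (3.15 and 4.28 against 15 and 12.25 FPKM, 1.64), both of which recruit monocytes, had the largest rises on this scale. *Lcn2*, which encodes the iron-chelating protein lipocalin 2, rose from 1.06 and 1.42 to 4.36 and 4.73 FPKM (1.31). In the other direction, *Ptges*, the prostaglandin E synthase, was at 60.27 and 52.73 FPKM in Ctrl and at 21.60 and 24.10 FPKM in cKO (-1.27). The protease *Mmp9* (-0.67) and the nitric oxide synthase *Nos2* (-0.49) also fell. So genes of this list moved both ways. Several low genes of the list are named here after their values were seen. *Saa3*, an acute phase protein, was called higher at 0.33 and 0.22 FPKM in Ctrl and 2.32 and 1.72 FPKM in cKO, which is 7.35 times the Ctrl mean, against 4.71 times for *Ccl2*. It had a Ctrl mean under 1 FPKM and reached the filter through the cKO libraries. Among the genes too low for the test, the neutrophil chemokines *Cxcl1* (0.52 and 0.48 FPKM in Ctrl, 0.99 and 0.73 in cKO), *Cxcl2* (0.05 and 0.11 against 0.76 and 0.38 FPKM) and *Cxcl5* (0 and 0.03 against 0.35 and 0.42 FPKM) were above Ctrl in both cKO libraries. *Ptgs2*, the inducible cyclooxygenase (0.51 and 0.41 against 0.22 and 0.15 FPKM), and the endothelial selectin *Sele* (0.54 and 0.71 against 0.28 and 0.43 FPKM) were below. *Il6* was at or under 0.15 FPKM in every library. Limma called 5 of the 16 without Ctrl replicate 1, 4 higher and 1 lower.

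Around IL-33, 11 of 21 genes of responding cells and type 2 immunity were tested. Of these 2 were higher (18.2%, beside 12.0% of all genes) and 5 lower (45.5%, beside 13.8%), with a median of -0.04. *Retnla* fell from 557 and 473 FPKM in Ctrl to 187 and 177 FPKM in cKO (log2 fold change of FPKM + 1 -1.49). *Penk*, the enkephalin precursor (-0.89), and *Ccl24*, an eosinophil chemokine (-0.71), fell too. *Arg1*, arginase 1, went from 0.04 FPKM in either Ctrl library to 5.33 and 3.87 FPKM in cKO (2.42), and *Chil3*, a chitinase-like protein, rose from 1.32 and 1.09 to 4.76 and 3.84 FPKM (1.26). *Arg1* reached the filter through the cKO libraries alone, and with no filter limma gave adjusted p = 0.0237 (Benjamini-Hochberg). Leaving out Ctrl replicate 1 left 4 of the 11 called, 2 in each direction.

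Along the axis from IL-18 to interferon-γ, 12 of 16 genes were tested, with 2 higher, 2 lower (16.7% each, beside 12.0% and 13.8% of all genes) and a median of 0.00. *Cxcl10*, an interferon-induced chemokine, rose from 3.49 and 2.95 FPKM in Ctrl to 9.85 and 8.80 FPKM in cKO (log2 fold change of FPKM + 1 1.29), and *Stat4* rose by 0.75. *Cxcl9*, another chemokine of that kind, fell from 16.21 and 16.23 to 10.12 and 11.91 FPKM (-0.52), and the receptor chain *Ifngr1* fell too (-0.38). When either Ctrl library was left out, 2 of the 12 were called, both higher.

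**Figure D5:**
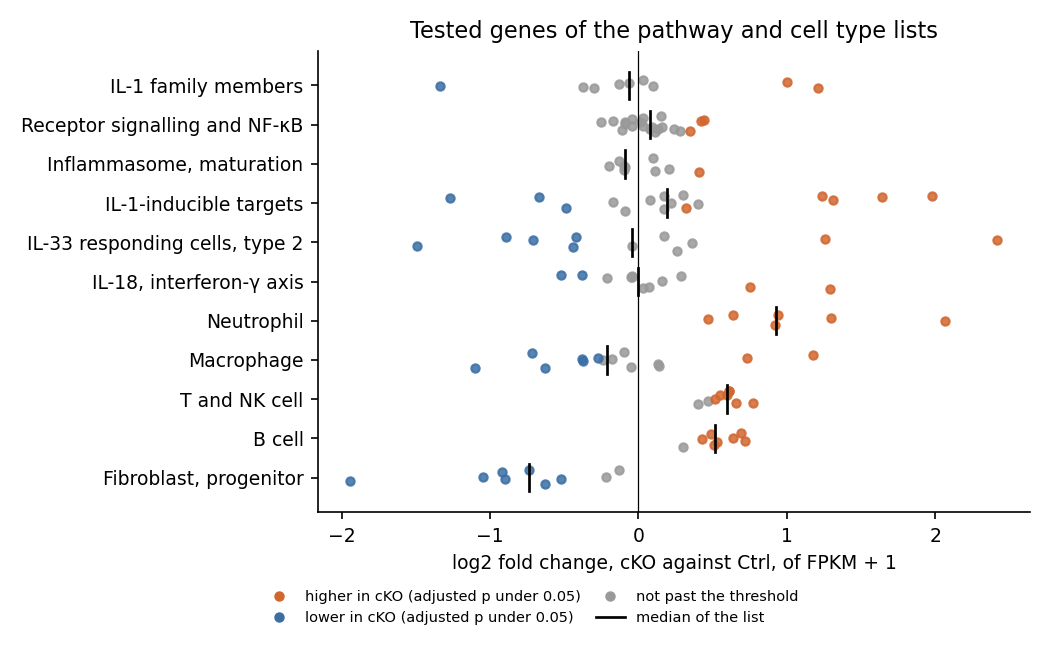
Log2 fold change of FPKM + 1, cKO against Ctrl, of the tested genes of each pathway and cell type list, 1 point a gene with a random vertical shift. Orange and blue points passed an adjusted p under 0.05 as higher and lower in cKO, grey points did not, and the black bar is the median of the list. The members spread on both sides of 0 (median -0.06), the 6 neutrophil genes that reached the filter lie to the right, and the fibroblast and progenitor genes lie to the left (median -0.74).

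Markers of cells that can make or bind IL-1 differed between the groups as well. Of the 14 neutrophil markers 6 were tested and called higher (100% of those tested, beside 12.0% of all genes tested). Among them were *Clec4d* (0.29 and 0.72 FPKM in Ctrl, 5.83 and 4.72 in cKO), *S100a8* (3.49 and 3.26 against 9.52 and 10.06 FPKM) and *S100a9* (3.56 and 3.98 against 8.50 and 7.83 FPKM). All 14 together summed to 15.19 and 16.40 FPKM in Ctrl and to 39.04 and 37.09 FPKM in cKO. The other 8 were too low for the test, and *Clec4d* and *Retnlg*, the latter named after its values were seen, had a Ctrl mean under 1 FPKM and reached the filter through the cKO libraries. With no filter limma called 5 of the 14, and *Retnlg* no longer passed (adjusted p = 0.119, Benjamini-Hochberg). The defining markers *Ly6g* and *Mpo* were at 0 to 0.09 FPKM in all 4 libraries. Of the 14 macrophage markers 2 were higher (14.3%, near the 12.0% of all genes tested) and 6 lower (42.9%, beside 13.8%). Those higher were *Fcgr1* (1.18) and *Cd68* (0.73), and those lower were led by *Cd163* (-1.10), *Mrc1* (-0.72) and *Cd14* (-0.63), all as log2 fold changes of FPKM + 1. The 14 summed to 1399 and 1212 FPKM in Ctrl and to 1241 and 1252 FPKM in cKO. *Lyz2* was the largest part of that sum, at 593 and 543 FPKM in Ctrl and 607 and 649 FPKM in cKO. By sign 4 of the 14 were higher and 10 lower. Without Ctrl replicate 1, cKO replicate 1 or cKO replicate 2, 5 of the 14 were called, 2 higher and 3 lower. The part of these cells in the rise of *Il1b* and *Il1rn* was not tested.

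Monocyte and dendritic cell markers moved both ways, with 2 of 9 tested higher (22.2%, beside 12.0% of all genes tested) and 1 lower (11.1%, beside 13.8%). *Ly6c2* (0.74) and *Itgax* (0.47) rose and *Cd209a* (-0.75) fell. The list summed to 103 and 95.18 FPKM in Ctrl and to 118 and 122 FPKM in cKO. T and NK cell markers summed to 118 and 122 FPKM in Ctrl and to 159 and 212 FPKM in cKO. Of these 7 of 9 were called higher (77.8%, beside 12.0% of all genes tested). Without Ctrl replicate 1 limma called 0 of these 9, with 6 higher at an unadjusted p under 0.05, without Ctrl replicate 2 it called 1, and without cKO replicate 2 it called 4. B cell markers summed to 241 and 273 FPKM in Ctrl and to 373 and 423 FPKM in cKO, with 7 of 8 higher, among them *Cd79a* (0.72), and with 2 of 8 called without Ctrl replicate 1. The share of B cell markers called higher was 87.5%, again beside 12.0% of all genes tested. The part of T, NK and B cells in the values of *Il18r1* and *Il1rl1*, which lymphoid cells express, was not tested.

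Fibroblast and adipocyte progenitor markers were lower in cKO, with 7 of 9 tested called (77.8%, beside 13.8% of all genes tested). The median log2 fold change of FPKM + 1 over the 9 was -0.74. *Pi16* was at 154 and 118 FPKM in Ctrl and at 34.59 and 34.39 FPKM in cKO (-1.94), *Cd34* fell by 1.05 and *Dcn*, which encodes decorin, by 0.92. The list summed to 1772 and 1527 FPKM in Ctrl and to 1019 and 1031 FPKM in cKO. Of 9 adipocyte markers 4 were lower, led by *Lep* (-1.40), *Retn* (-0.78) and *Adipoq* (-0.58), and without Ctrl replicate 1 and without Ctrl replicate 2 the number was 1 and 2. Of 8 endothelial markers 4 were lower, led by *Tek* (-0.60), with 1 called without Ctrl replicate 1, 2 without Ctrl replicate 2 and 2 without cKO replicate 1. The share called lower was 44.4% of the adipocyte markers and 50% of the endothelial markers, beside 13.8% of all genes tested. By sign 2 of the 9 adipocyte markers were higher and 7 lower. The 5 not called were *Plin1* (-0.07), *Lipe* (-0.02), *Pnpla2* (0.05), *Cidec* (0.07) and *Fabp4* (-0.25), so the adipocyte markers did not fall as a set. The part of fibroblasts, progenitors, adipocytes or endothelial cells in the fall of *Il1r2* was not tested.

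Of 6 mast cell and basophil markers tested, *Cpa3* (-0.42) and *Tpsb2* (-0.33) were lower (33.3%, beside 13.8% of all genes tested). By sign 2 of the 6 were higher and 4 lower. *Hdc*, named after its values were seen, was at 0.91 and 1.09 FPKM in Ctrl and 1.52 and 1.69 FPKM in cKO (adjusted p = 0.0567, limma with Benjamini-Hochberg adjustment). Median-of-ratios scaling, quantile normalization and the fit without a trend each called 1 gene of the list higher. Without Ctrl replicate 1 limma called 0 of the 6, with 1 at an unadjusted p under 0.05, and without cKO replicate 1 and without cKO replicate 2 it called 1 each. The keratinocyte marker *Krtdap* fell by 1.55, from 4.38 and 4.99 FPKM in Ctrl to 1.09 and 0.81 FPKM in cKO. Its list summed to 7.35 and 7.76 FPKM in Ctrl and to 3.59 and 3.15 FPKM in cKO, with *Krtdap* itself most of the Ctrl sum. Only 2 genes of the list were tested, and *Krtdap*, with a cKO mean of 0.95 FPKM, reached the filter through the Ctrl libraries. With no filter limma gave adjusted p = 0.0273 (Benjamini-Hochberg) for *Krtdap*. In that fit 5 of the 8 listed keratinocyte and epithelial genes were higher in cKO by sign and 3 lower, so the list moved both ways. The mesothelial markers, from cells known to make IL-33, summed to 3.49 and 3.26 FPKM in Ctrl and to 2.56 and 2.56 FPKM in cKO, with 1 gene tested and not called.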

How the data were processed

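RNA-seq was done on ingWAT of Ctrl and cKO mice, with 2 libraries of each. The authors selected polyadenylated RNA, read it single-end on a BGISEQ-500 and deposited FPKM for each gene and library, to the hundredth, with functional annotation. HISAT2 2.0.4, RSEM 1.2.12 and the build mm10 are named in the submitters' processing notes. Read counts were not used here. Depth was worked out from the spacing of FPKM values of 305 short RNA genes, where 85.2% to 91.2% of the values used came out as whole reads within 0.1. On simulated libraries the largest error was 1.67%. The groups follow the sample titles, and no per-sample column was left out.

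The 4-library mean of a gene had to reach 1 FPKM, and log2(FPKM + 1) was fitted in R 4.3.3 by limma 3.58.1 (eBayes with a trend, Benjamini-Hochberg adjustment over 12658 genes, threshold 0.05). In simulated data for this comparison, 196 of 200 changed genes and 4 unchanged genes were called, and 0 when no gene was changed. How the number recovered depends on the size of the change was not tested, so it does not give the recovery of small differences. Ratios within a library were compared by an exact permutation test. Replicates of a group were separate libraries, with identical values for 77 and 81 of the 12658 genes. Other steps were run with matplotlib 3.10.9, numpy 2.4.6 and pandas 2.3.3 under Python 3.11.15.

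The members and the lists of pathway and cell type genes were chosen with earlier results of these data known. All members were named, and of each list up to 3 genes with the largest rise and up to 3 with the largest fall among those called, with *Myd88*, *Nlrp3*, *Pycard* and *Casp1*, the targeted gene and the receptor genes of the chromosome 1 cluster. *Il1bos*, *Il18bp*, *Il1f9*, *Retnlg*, *Hdc*, *Lyz2* and *Fabp4* were named after their values were seen. So were the low genes of the IL-1-inducible list, the adipocyte markers not called and the markers at or near 0. Gene positions come from GENCODE M21, promoter sequences from RefSeq. The alternatives were leaving out each library in turn, a block for the replicate number, eBayes without a trend, quantile normalization, median-of-ratios scaling, a filter at 5 FPKM or none, a pseudocount of 0.1, and, for counts of calls, an absolute log2 fold change of 1 or more.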

Additional observations from a re-analysis of the deposited data

How the results depend on the processing

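*Il1b*, *Il1rn* and *Il1r2* kept their direction and passed the threshold under every alternative in which they were tested, and the filter at a mean FPKM of 5 left *Il1b* and *Il1rn* untested. With 1 library left out, their log2 fold changes ran from 0.91 to 1.09, from 1.02 to 1.40 and from -1.47 to -1.21. *Il1r1* passed with the filter at 5 FPKM (-0.30), median-of-ratios scaling (-0.29) and quantile normalization (-0.28), and *Il1rap* with median-of-ratios scaling (-0.36) and without a trend (-0.37). Median-of-ratios scaling thus called 5 members. With 1 library left out *Il1r1* ranged from -0.41 to -0.19, passing without cKO replicate 2, *Il1rap* from -0.46 to -0.29, *Il33* from -0.23 to 0.10, *Il18* from -0.34 to 0.08 and *Il18r1* from -0.16 to 0.22. The sign of *Il33* turned without cKO replicate 1, that of *Il18* without Ctrl replicate 1 and that of *Il18r1* without cKO replicate 2. The number of genes called was 1762 with no filter, 233 with the added fold threshold and 787 to 2340 with 1 library left out. With no filter limma called 0 of the 9 T and NK cell markers, with 7 higher at an unadjusted p under 0.05, and 2 of the 8 B cell markers. The causes were not tested.

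The difference of replicate 1 and replicate 2 showed almost no correlation between the groups (r = 0.0148 over 12658 genes). This cannot settle whether the samples were paired, which the labels do not state. With the replicate number as a block, 3383 genes and 5 members were called, *Il1r1* (-0.30, adjusted p = 0.0476, limma) and *Il1rap* (-0.37, adjusted p = 0.0493) among them. Within the pairs the log2 difference of *Il1rn* over *Il1b* was 0.63 and 0.40, that of *Il1r2* over *Il1r1* -1.08 and -1.10, and that of *Il18bp* over *Il18* 0.35 and 0.23. Low depth limits *Il1a*, and the Ctrl values of *Il1b* and *Il1rn*, most.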
